A study of Homo sapiens with 8 samples.

Results

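HMLE is a line of immortalized mammary epithelial cells, of human origin, within which subpopulations with mesenchymal features occur. The study hybridised total RNA of 3 such mesenchymal subpopulations, MSP1, MSP2 and MSP3, and of a CD24hi sort, that is of cells rich in the epithelial surface marker CD24, to single-colour Affymetrix arrays. Each was measured with an array titled a and an array titled b, which gave 8 arrays, and all cells were grown in the same MEGM medium. Described here are the 6 mesenchymal arrays, chosen by their titles: MSP1 a, MSP2 a and MSP3 a were set against MSP1 b, MSP2 b and MSP3 b as 3 pairs of the same subpopulation. The labels state no meaning for the letters. Separate cultures, RNA extractions and hybridisations can therefore not be told apart as the source of a difference between a and b, and the labels give no treatment, genotype or time that separates the sets.

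Proliferating cells transcribe the genes of DNA replication and of mitosis in step with the cell cycle. Sterol synthesis genes are controlled together through SREBP transcription factors, which respond to membrane cholesterol. Interferon-stimulated genes are switched on by STAT and IRF factors, and stress responses such as the unfolded protein response, the amino acid response driven by ATF4 and the heat shock response each have their own set of targets. In cultured cells such programs are known to vary with growth state and nutrient supply.

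Values are signals on the linear scale of the deposited table, in which every array had a 2% trimmed mean of 150. Where 3 signals are given for a set, they are those of MSP1, MSP2 and MSP3, in signal units and in that order. A difference is the log2 signal on array a minus that on array b, averaged over 3 pairs and given in log2 units with its standard error (SE, n = 3 pairs) from a limma fit with the subpopulation as a block. Of 54613 probe sets without controls, the 22498 with a mean of at least 32 signal units over the 6 arrays were tested. They represented 4503 genes with a name, each through its brightest named probe set. A gene is said to have risen or fallen in a where its adjusted p, over all probe sets tested, was under 0.05.

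The a and b arrays differed widely and in the same way in the 3 subpopulations. Of the 4503 named genes, 654 rose in a, which is 14.5%, and 494 fell, which is 11%. Every called gene had the same sign in all 3 pairs, and 105 of those that rose and 57 of those that fell changed over 2-fold. Of the 4503 named genes, called or not, 987 had every a signal above every b signal, and 849 had every a signal below. Lack of overlap between the sets was therefore common. Over all probe sets tested, 3113 rose (13.8%) and 2797 fell (12.4%), 26.3% in all. Called in either direction were 25.5% of the named genes, 27.0% of those in the part of the name table that runs in array order and 17.9% of those whose name comes solely from the authors' calls against CD24hi cells. By size alone, 8.82% of named genes were higher by a mean of at least 1.5-fold with 1 sign in all 3 pairs, and 6.48% were lower. Of the called genes, 38 that rose and 25 that fell averaged under 32 signal units in their dimmer set, so they passed the dim limit through the brighter set alone. The differences of the pairs correlated across these 22498 probe sets with r = 0.65 between MSP1 and MSP2, 0.61 between MSP1 and MSP3 and 0.76 between MSP2 and MSP3. This is a description across probe sets, which are not independent replicates. The first principal component of the 6 arrays held 55% of the variance and placed the a arrays at -12.1, -44.3 and -47.4 and the b arrays at 38.6, 32.8 and 32.4, so it separated the letters. The MSP1 pair differed least: 3.14% of probe sets lay over 2-fold apart in MSP1, 6.82% in MSP2 and 7.53% in MSP3.

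Calls depended on which pairs and which dim probe sets entered the fit. Without the MSP2 pair limma called 1 probe set and 0 named genes (1193 genes had an unadjusted p under 0.05), without the MSP3 pair 199 genes and without the MSP1 pair 1204 genes. No gene list below had a called member without the MSP2 pair. With dim probe sets kept and a constant prior it called 0 genes (1315 at an unadjusted p under 0.05), and with dim probe sets kept and an intensity trend in the prior 1228.

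The deposited controls also differed between the sets. The 24 probe sets for Bacillus transcripts had a geometric mean of 257, 276 and 285 signal units on MSP1, MSP2 and MSP3 a, against 188, 191 and 207 on MSP1, MSP2 and MSP3 b, and every a array stood above every b array. The 18 probe sets for hybridization controls read 677, 677 and 689.5 on the a arrays and 621, 602 and 659 on the b arrays. For ACTB, the ratio of its 3′ to its 5′ probe set overlapped between the sets, at 1.15, 1.13 and 1.25 on the a arrays and 1.20, 1.17 and 1.18 on the b arrays. The part of these controls in the results was not tested. The median difference over all named genes was 0.02 log2 units, which the common trimmed mean of the arrays largely fixes. Bright genes depended more on the scaling, as given for the ribosomal list.

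The epithelial markers were mixed in level in both sets. Of 21 epithelial marker genes, 9 lay under 32 signal units on every mesenchymal array, among them CDH1, EPCAM, ESRP1, RAB25 and TP63, genes of epithelial adhesion and identity. Others were bright: SFN, an epithelial 14-3-3 protein, read 5596, 4558 and 5535 on the a arrays, against 4702, 5322 and 4899 on the b arrays, and KRT14, a basal keratin, read 2506, 4445 and 4831 on the a arrays, against 2385, 2915 and 2955 on the b arrays. The summed signal of the 21 was 10710 to 15130 on the a arrays and 9329 to 11130 on the b arrays, against 105800 and 75900 on the CD24hi arrays. Among the 12 that could be tested, KRT17, KRT5 and ITGB4 rose, and LAMB3 and DSP fell. These were 25% and 16.7%, against 14.5% and 11% of all named genes. The other, dimmer probe set of ITGB4 differed by 0.32 and did not pass the test (adjusted p = 0.209). KRT17, another basal keratin, read 1142, 1518 and 2085 on the a arrays, against 524, 433 and 718 on the b arrays, and the sets did not overlap (difference 1.49 ± 0.16 SE, adjusted p = 0.0106). LAMB3, a laminin subunit of the basal membrane, went the other way, with 243, 114 and 327 on the a arrays, against 592, 480.3 and 726 on the b arrays (difference -1.50 ± 0.20 SE, adjusted p = 0.0111). The epithelial genes thus split in direction, and their part in the other results was not tested.

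Among the 15 tested mesenchymal markers 5 rose and 1 fell, or 33.3% and 6.67% against 14.5% and 11% of all named genes. With quantile normalization 2 of the 15 rose and 1 fell. Without the subpopulation block 3 rose, and without the MSP3 pair 2 rose. PDGFRB, a receptor for platelet-derived growth factor, read 177, 571 and 268 on the a arrays, against 70.0, 149 and 79.5 on the b arrays, without overlap (difference 1.68 ± 0.15 SE, adjusted p = 0.0106). S100A4, a calcium-binding protein of motile fibroblasts, read 529, 2024 and 422 on the a arrays, against 244, 414 and 123 on the b arrays (difference 1.73 ± 0.22 SE, adjusted p = 0.0111). Its level on MSP2 a stood far above the other arrays, and the lowest a value lay just above the highest b value. COL3A1, COL1A2 and DCN rose as well, and CDH2, the N-cadherin gene, fell (difference -0.53 ± 0.11 SE, adjusted p = 0.0228). VIM, vimentin, did not pass the test on its bright probe set, with 8801, 9917 and 11130 on the a arrays, against 8002, 9450 and 8277 on the b arrays (difference 0.21 ± 0.12 SE, adjusted p = 0.236, or -0.035 with quantile normalization). A dimmer VIM probe set fell by 1.75 log2 units (adjusted p = 0.0105), so the gene's probe sets disagreed.

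**Figure D1:**
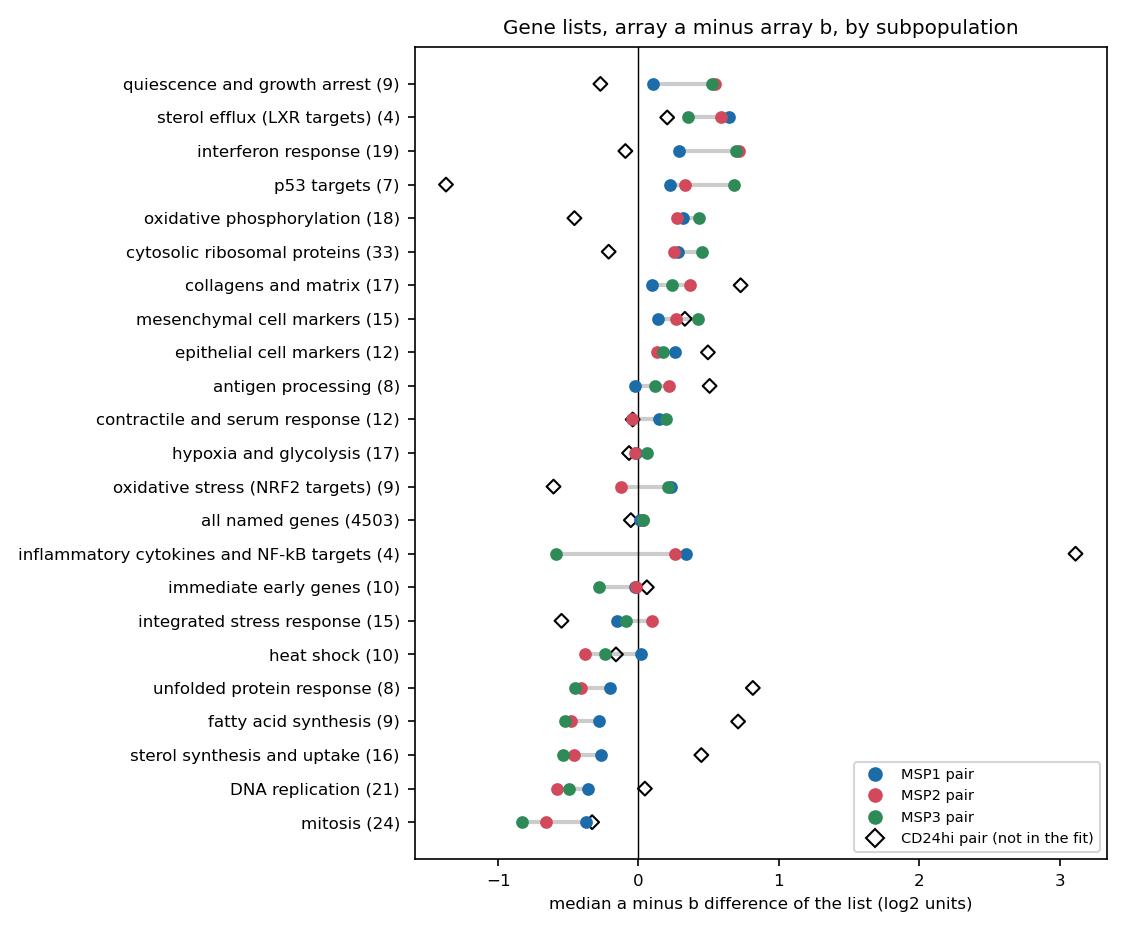
Median difference, array a minus array b, of each gene list (number of members tested in brackets) in log2 units. Filled circles are the MSP1, MSP2 and MSP3 pairs and open diamonds the CD24hi pair, which was not in the fit; the mitosis list lies below 0 in all 4 pairs, and the interferon list above 0 in the 3 mesenchymal pairs, at 0.29, 0.72 and 0.69.

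Genes of proliferation were lower on the a arrays. In the mitosis list 15 of 24 tested members fell and 0 rose, or 62.5% against 11% of all named genes. The list's median difference was -0.63 log2 units, against 0.02 over all named genes, and it was -0.37 in MSP1, -0.66 in MSP2 and -0.83 in MSP3. In the DNA replication list 12 of 21 tested members fell and 0 rose, or 57.1%, with a median of -0.49 and -0.36, -0.58 and -0.49 in MSP1, MSP2 and MSP3. Without the MSP3 pair 5 mitosis and 2 replication members were called, and without the MSP2 pair 0 of either, while the medians stayed at -0.43 or lower. Only the mean difference of CENPA, at 0.01, lay above 0 among the 45 members of both lists. The plot of members by list shows the called genes of both lists below 0.

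ANLN, the anillin gene of the contractile ring in cell division, read 1731, 1171 and 1007 on the a arrays, against 2904, 2941 and 3177 on the b arrays. Each a array lay below every b array, and MSP1 a was the highest of its set (difference -1.24 ± 0.19 SE, adjusted p = 0.013). BUB1B, a kinase of the spindle checkpoint, read 1122, 914 and 696 on the a arrays, against 1874, 1871 and 1914 on the b arrays, again without overlap (difference -1.08 ± 0.16 SE, adjusted p = 0.0127). CENPE, a kinetochore motor, and KIF23 and KIF11, motors of the spindle, fell by 1.10, 1.06 and 1.02 log2 units. TOP2A, the topoisomerase of dividing cells, and PLK1, a mitotic kinase, fell by 0.80 and 0.76. CCNA2, a cyclin of S phase and G2, fell by 0.90, and CDC20, the activator of the anaphase-promoting complex, by 0.69. The 2 brightest members did not pass the test: PTTG1, the securin gene, differed by -0.17 (adjusted p = 0.305) and CKS2, a cyclin kinase subunit, by -0.04 (adjusted p = 0.844).

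In the replication list ORC1 and CDC6, factors of initiation, had the widest differences. ORC1, a subunit of the origin recognition complex, read 94.2, 59.0 and 65.4 on the a arrays, against 173, 214 and 168 on the b arrays (difference -1.36 ± 0.20 SE, adjusted p = 0.0123). CDC6, which loads the replicative helicase, read 433, 304 and 314 on the a arrays, against 762, 866 and 781 on the b arrays, and its sets did not overlap (difference -1.22 ± 0.16 SE, adjusted p = 0.0111). RRM2, a subunit of ribonucleotide reductase, read 3253, 2379 and 2142 on the a arrays, against 4856, 5164 and 4911 on the b arrays (difference -0.96 ± 0.15 SE, adjusted p = 0.0142). CDC45, a helicase cofactor, fell by 0.93, CCNE2, a cyclin of the G1 to S transition, by 0.87, and the helicase subunits MCM5 and MCM3 by 0.52 and 0.51. PCNA, the sliding clamp, differed by -0.09 (adjusted p = 0.542) and TYMS, thymidylate synthase, by -0.04 (adjusted p = 0.808), and the a and b values of both overlapped. CDC25A, a phosphatase that activates cyclin-dependent kinases, fell by 1.45 on its brightest probe set, while its other 2 probe sets differed by -0.70 and -0.57 without passing the test.

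Promoters of ANLN, BUB1B and CDC6 are shown. They were picked, by width of change, among called list members whose promoter held the motif. The matches in them were thus fixed by that choice. They are RefSeq sequences of build GRCh38.p14, from 250 bases before to 50 bases after the start site. Capitals mark the motif TTTGAA (the cell cycle homology region, CHR) in ANLN (chr7:36389612-36389911, plus strand) and BUB1B (chr15:40160819-40161118, plus strand), and the E2F motif TTTNGCGC in CDC6 (chr17:40287629-40287928, plus strand), searched on both strands. In ANLN the 2 matches, 1 on each strand, adjoin.
ANLN: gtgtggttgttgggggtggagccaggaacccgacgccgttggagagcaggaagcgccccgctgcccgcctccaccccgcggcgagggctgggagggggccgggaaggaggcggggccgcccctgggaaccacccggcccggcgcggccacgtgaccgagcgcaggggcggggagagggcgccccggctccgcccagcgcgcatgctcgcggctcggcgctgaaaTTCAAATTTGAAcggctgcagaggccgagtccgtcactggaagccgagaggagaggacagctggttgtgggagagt
BUB1B: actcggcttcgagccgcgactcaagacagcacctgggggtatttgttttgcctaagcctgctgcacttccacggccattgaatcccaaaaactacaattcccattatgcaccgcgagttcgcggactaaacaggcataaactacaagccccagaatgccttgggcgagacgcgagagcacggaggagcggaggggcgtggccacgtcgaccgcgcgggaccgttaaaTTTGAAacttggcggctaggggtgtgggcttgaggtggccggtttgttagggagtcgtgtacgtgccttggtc
CDC6: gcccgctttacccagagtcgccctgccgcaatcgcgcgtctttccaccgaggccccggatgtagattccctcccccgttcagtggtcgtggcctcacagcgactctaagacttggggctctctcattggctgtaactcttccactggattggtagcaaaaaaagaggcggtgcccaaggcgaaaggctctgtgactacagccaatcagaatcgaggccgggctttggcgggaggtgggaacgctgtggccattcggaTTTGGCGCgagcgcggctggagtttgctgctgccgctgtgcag
TTTGAA was found in 13 of 19 mitosis promoters (68.4%), in 1 of 18 replication promoters (5.56%) and in 15.4% of all 27305 promoters. TTTNGCGC was found in 6 of 18 replication promoters (33.3%), in 0 of 19 mitosis promoters and in 1.83% of all promoters. A match is a description of the letters in this window and not a binding site.

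Several growth arrest genes were higher on the a arrays. CDKN1A, which encodes the cyclin kinase inhibitor p21, read 1386, 1468 and 2137 on the a arrays, against 702, 561 and 786 on the b arrays, and every a array exceeded every b array (difference 1.27 ± 0.13 SE, adjusted p = 0.0106). BTG2, an antiproliferative gene, read 107, 133 and 171 on the a arrays, against 45.6, 37.3 and 49.9 on the b arrays (difference 1.61 ± 0.15 SE, adjusted p = 0.0106), and ZMAT3, a zinc finger gene controlled by p53, rose by 1.23 log2 units. These 3 were the members that rose among 7 tested p53 targets, none of which fell, or 42.9% against 14.5% of all named genes. The list's median was 0.38, with 0.22, 0.33 and 0.68 in MSP1, MSP2 and MSP3, and 0.23 without the MSP3 pair, when the same number was called. DDB2, FAS and GADD45A, DNA damage and death genes of the same list, differed by 0.38, 0.17 and 0.23 without passing the test. In the quiescence list CCNG2, FOXO1 and GAS1 rose among 9 tested and 0 fell, and without the MSP3 pair 0 were called. The share that rose, 33.3% against 14.5% of all named genes, includes FOXO1 and is therefore not read as a result. FOXO1, a forkhead factor, was dim on 2 of 3 b arrays and on MSP2 a, and was at least 1.67-fold higher with the dim b signals raised to 32 (difference 1.00 ± 0.17 SE, adjusted p = 0.0158). It passed the dim limit through its a signals, so its call supports no count. The median of the quiescence list was 0.54, with 0.10 in MSP1, 0.54 in MSP2 and 0.52 in MSP3.

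**Figure D2:**
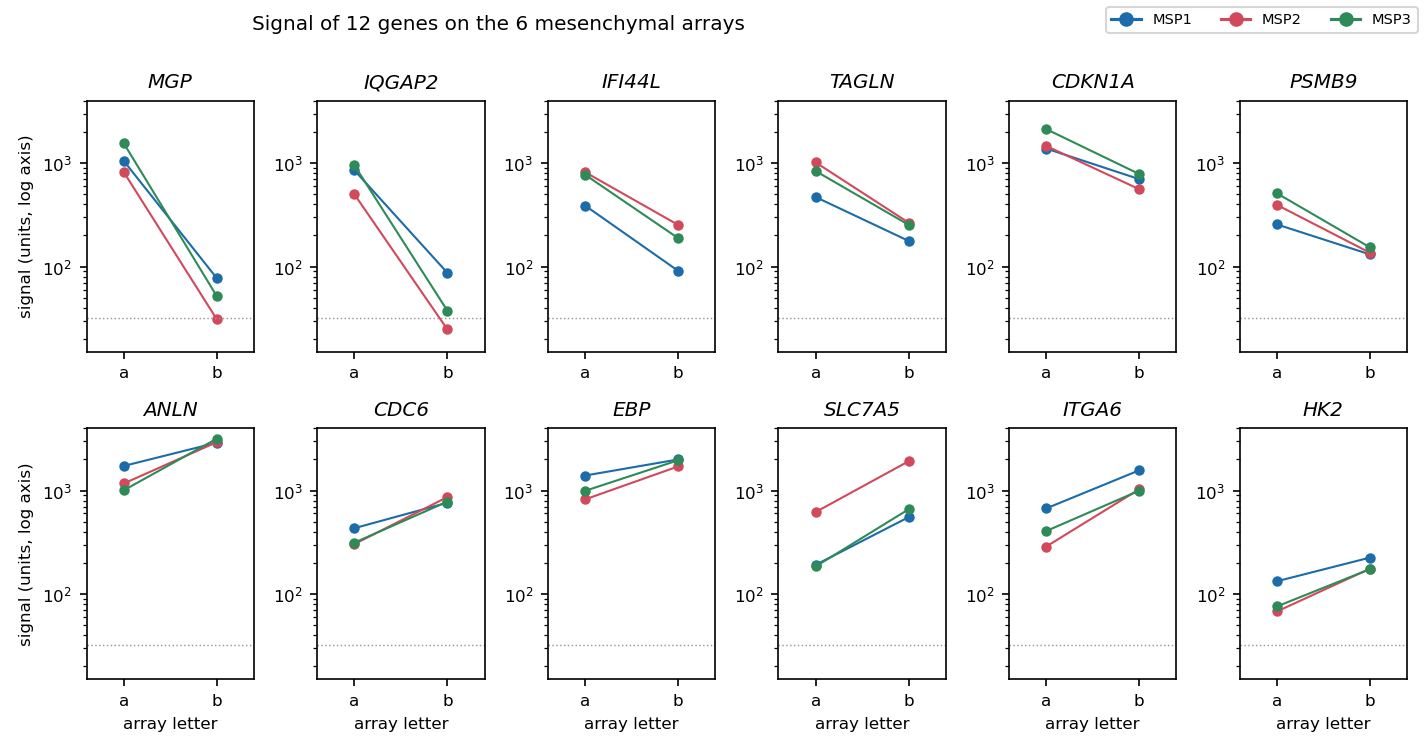
Signal in signal units (log axis) of 12 genes on array a (left) and array b (right) of each subpopulation, a line for each pair; the dotted line marks 32 units. In the upper row every a signal lies above its own b signal and in the lower row every one lies below it, with signals such as 1050, 819 and 1557 for MGP on the a arrays and 77.4, 30.9 and 51.8 on the b arrays.

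Sterol synthesis genes were lower on the a arrays. Of 16 tested members of the sterol synthesis and uptake list 7 fell and 0 rose, or 43.8% against 11% of all named genes; at the stricter dim limit, and also with an intensity trend, 9 were called lower and 2 higher. The list's median was -0.44, with -0.27, -0.46 and -0.53 in MSP1, MSP2 and MSP3. None was called without the MSP2 or the MSP3 pair, when the medians were -0.44 and -0.35. EBP, a sterol isomerase, read 1397, 821 and 994 on the a arrays, against 1998, 1710 and 1960 on the b arrays, without overlap (difference -0.85 ± 0.14 SE, adjusted p = 0.0155). CYP51A1, a sterol demethylase, read 2486, 1618 and 1581 on the a arrays, against 3041, 2560 and 3176 on the b arrays, and MSP1 a stood above the other a arrays (difference -0.65 ± 0.16 SE, adjusted p = 0.0342). LSS, lanosterol synthase, fell by 0.44 and SQLE, squalene epoxidase, by 0.43. IDI1 and FDPS, bright enzymes of isoprenoid synthesis, differed by -0.14 and 0.05 (adjusted p = 0.414 and 0.739), and that of FDPS turned to -0.05 with quantile normalization.

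Fatty acid synthesis genes, which SREBP factors also control, showed 4 falls and 0 rises among 9 tested, or 44.4% against 11% of all named genes, with a median of -0.43, and 2 falls without the MSP3 pair. ELOVL6, a fatty acid elongase, read 985, 676 and 696 on the a arrays, against 1545, 1230 and 1446 on the b arrays (difference -0.86 ± 0.12 SE, adjusted p = 0.0126). SREBF1, which encodes SREBP-1, fell by 0.82 and ACLY, which makes cytosolic acetyl-CoA, by 0.51. SCD, the stearoyl-CoA desaturase, differed by -0.24 (adjusted p = 0.132). In the sterol efflux list, which holds targets of the LXR nuclear receptors and the receptors themselves, APOE and NR1H3 rose among 4 tested. Because it includes APOE, this count is not set against the 14.5% of all named genes that rose. APOE, a lipid carrier protein, read 57.1, 217 and 246 on the a arrays, against 3.65, 11.3 and 14.8 on the b arrays. The b arrays were dim throughout, so APOE was at least 4.53-fold higher (difference 4.09 ± 0.12 SE, adjusted p = 0.000501). It passed the dim limit through the a arrays alone, and its call and its part in the list's count and median therefore support nothing further. NR1H3, the gene of LXR alpha, read 60.7, 163 and 104 on the a arrays, against 26.6, 65.2 and 44.2 on the b arrays (difference 1.25 ± 0.11 SE, adjusted p = 0.0106). Its sets overlapped because MSP1 was low on both arrays, while each pair differed by about the same amount. ABCA1, the cholesterol exporter, differed by -0.24 (adjusted p = 0.314), so the list did not move as a unit. The list's median of 0.51 became -0.28 without the MSP2 pair and -0.03 without the MSP3 pair. In both cases the list held 3 members, because APOE fell under the dim limit on the arrays kept.

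Interferon-stimulated genes were higher on the a arrays. Of 49 genes in the list 29 had a named probe set, 19 were bright enough to test, and 9 of these rose and 0 fell. That is 47.4% against 14.5% of all named genes. The list's median was 0.47, with 0.29 in MSP1, 0.72 in MSP2 and 0.69 in MSP3. Without the MSP3 pair 3 members were called and without the MSP2 pair 0, with medians of 0.435 and 0.315. IFI44L, an interferon-induced gene, read 389.6, 820.5 and 774 on the a arrays, against 91.2, 254 and 189 on the b arrays (difference 1.94 ± 0.13 SE, adjusted p = 0.0105). UBE2L6, the conjugating enzyme for ISG15, read 557, 787 and 897 on the a arrays, against 265, 277 and 312 on the b arrays (difference 1.37 ± 0.14 SE, adjusted p = 0.0106). IRF9, which binds DNA in the ISGF3 complex, read 135, 206 and 196 on the a arrays, against 91.5, 65.7 and 73.1 on the b arrays (difference 1.21 ± 0.22 SE, adjusted p = 0.0179). In all 3 genes the a values lay above the b values without overlap, as in 987 of the 4503 named genes. GBP1, a guanylate-binding protein, rose by 1.12, IFIT1, which binds viral RNA, by 1.11, and the membrane proteins IFITM1 and IFITM2 by 0.95 and 0.72. IFI6 and EPSTI1 rose by 0.77 each.

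The response was uneven among members. STAT2, a signal transducer, differed by 0.34, IRF1 by 0.20, BST2 by 0.12 and OAS3, an antiviral synthetase, by -0.235, and none of these passed the test. In the antigen processing list PSMB9 and PSMB10, subunits of the immunoproteasome, rose, 2 of 8 tested or 25% against 14.5% of all named genes, and 0 fell, and without the MSP3 pair 1 was called. PSMB9 read 256, 396 and 512 on the a arrays, against 131, 136 and 154 on the b arrays (difference 1.41 ± 0.17 SE, adjusted p = 0.0107). TAP1 and TAP2, the peptide transporter genes, differed by -0.05 and -0.195, and B2M, the light chain of class I molecules, by 0.19 (adjusted p = 0.212), a difference that turned to -0.04 with quantile normalization.

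Promoters of 2 called interferon genes are shown because they held the motif GAAA, any 2 bases and GAAA, the core of the interferon-stimulated response element (ISRE), marked in capitals and searched on both strands. IFI44L lies at chr1:78620198-78620497 on the plus strand, and GBP1 at chr1:89065159-89065458 on the minus strand, in GRCh38.p14.
IFI44L: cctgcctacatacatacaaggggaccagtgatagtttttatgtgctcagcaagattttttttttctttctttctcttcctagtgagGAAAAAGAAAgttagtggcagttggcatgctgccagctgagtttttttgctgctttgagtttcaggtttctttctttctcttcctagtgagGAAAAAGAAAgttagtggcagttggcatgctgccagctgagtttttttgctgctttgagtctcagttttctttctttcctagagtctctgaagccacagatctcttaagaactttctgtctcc
GBP1: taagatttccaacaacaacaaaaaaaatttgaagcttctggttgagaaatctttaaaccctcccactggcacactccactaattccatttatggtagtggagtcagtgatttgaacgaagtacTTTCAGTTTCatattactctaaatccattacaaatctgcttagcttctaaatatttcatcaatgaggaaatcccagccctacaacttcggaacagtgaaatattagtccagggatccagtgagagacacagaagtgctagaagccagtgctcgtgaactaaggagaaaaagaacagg
The motif lay 164 and 73 bases before the start site of IFI44L and 127 bases before that of GBP1, where its complement is printed. It was found in 13 of 17 promoters of tested interferon genes (76.5%) and in 3.65% of all promoters, and in 6 of the 8 promoters of called ones. It was found in 0 of the 19 mitosis, 18 replication and 12 sterol promoters. A core of the sterol regulatory element, TCACNCCAC, was found in 1 of the 12 sterol promoters and 1.15% of all, which says only that these letters are rare in this window.

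**Figure D3:**
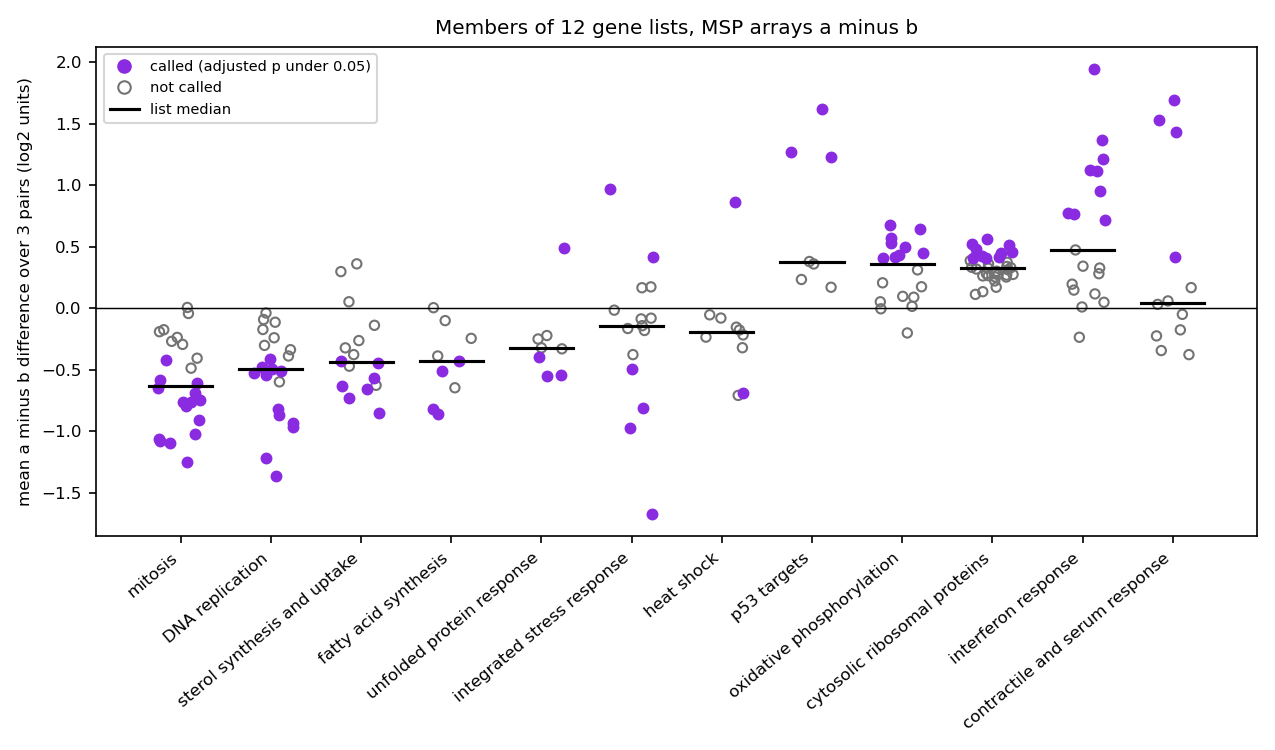
Mean difference over the 3 mesenchymal pairs, array a minus array b, in log2 units for each tested member of 12 gene lists. Filled points passed the test, open points did not, and bars are list medians; called members lie below 0 in the mitosis, replication, sterol and fatty acid lists, and on both sides of 0 in the integrated stress response list.

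Stress programs did not share a direction. Of 8 tested genes of the unfolded protein response 3 fell and 1 rose, or 37.5% and 12.5% against 11% and 14.5% of all named genes, and 0 were called without the MSP3 pair. The list's median was -0.33, with -0.20, -0.41 and -0.45 in MSP1, MSP2 and MSP3. EDEM1, which delivers misfolded proteins to degradation, read 248, 239.9 and 227 on the a arrays, against 393, 335 and 323 on the b arrays (difference -0.55 ± 0.11 SE, adjusted p = 0.0214). HYOU1, an endoplasmic reticulum chaperone, fell by 0.54 and SEL1L, a degradation adaptor, by 0.40, while DNAJB9, a co-chaperone, rose by 0.49. The other probe sets of SEL1L (-0.33 and -0.14) and of DNAJB9 (0.28 and 0.22) did not pass the test. With the named probe sets of each gene averaged, 2 members of the list fell and 0 rose. HSP90B1, the brightest tested chaperone of the list, differed by -0.32 (adjusted p = 0.0998), with all a values below all b values, as in 849 of the 4503 named genes.

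In the integrated stress response list 4 of 15 tested members fell and 2 rose, or 26.7% and 13.3% against 11% and 14.5% of all named genes. Without the subpopulation block 0 fell and 1 rose, and without the MSP3 pair 2 fell and 1 rose. The median was -0.14 and was -0.15 in MSP1, 0.09 in MSP2 and -0.09 in MSP3. SLC7A5, the light chain of a transporter for large neutral amino acids, read 191, 619.7 and 184 on the a arrays, against 553, 1920 and 659 on the b arrays. MSP2 was high on both arrays, so the sets overlapped although each pair differed alike (difference -1.67 ± 0.12 SE, adjusted p = 0.0105); without the subpopulation block the adjusted p was 0.097. SLC3A2, the heavy chain of the same transporter, read 307, 480.0 and 316 on the a arrays, against 551, 1084 and 587 on the b arrays (difference -0.97 ± 0.12 SE, adjusted p = 0.011). STC2, a secreted glycoprotein, and ASNS, asparagine synthetase, fell by 0.81 and 0.49. ATF4, the transcription factor that drives this list, rose by 0.42, and DDIT4, an inhibitor of mTORC1, read 2607, 3170 and 3347 on the a arrays, against 1493, 1771 and 1396 on the b arrays (difference 0.97 ± 0.14 SE, adjusted p = 0.0118). The transporter genes and ATF4 thus moved in opposite directions.

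Heat shock genes showed 1 rise and 1 fall among 10 tested, 10% each, which is no more than the 14.5% and 11% of all named genes. HSPB1, a small heat shock protein, read 3130, 4247 and 4451 on the a arrays, against 1805, 2496 and 2190 on the b arrays (difference 0.86 ± 0.11 SE, adjusted p = 0.0112). FKBP4, a co-chaperone of HSP90, fell by 0.69, and HSPA1A and HSPA1B, near-identical copies of inducible HSP70 whose probe sets may share signal, differed by -0.32 and -0.71 (adjusted p = 0.143 and 0.0606). The other FKBP4 probe set differed by -0.58 and did not pass the test (adjusted p = 0.16). With the named probe sets of each gene averaged, 0 heat shock genes fell. Among 9 oxidative stress genes 3 rose and 1 fell, or 33.3% and 11.1% against 14.5% and 11% of all named genes. FTH1, ferritin heavy chain, and NQO1, a quinone reductase, rose by 0.59 and 0.485, and GCLM, of glutathione synthesis, fell by 0.55. The other NQO1 probe set differed by 0.30 and did not pass the test (adjusted p = 0.13). The metallothioneins MT1G and MT1X differed by 0.32 and 0.29 and did not pass the test. Among 17 hypoxia and glycolysis genes 4 fell and 1 rose, or 23.5% and 5.88% against 11% and 14.5% of all named genes. Without the MSP3 pair 2 fell. HK2, a hexokinase, read 133, 67.6 and 75.7 on the a arrays, against 224, 175 and 174 on the b arrays (difference -1.11 ± 0.15 SE, adjusted p = 0.0113). PFKFB3, an activator of glycolysis, and ENO2, an enolase, fell by 0.755 and 0.655, while the bright glycolytic enzymes LDHA and ENO1 differed by 0.141 and -0.095 (adjusted p = 0.392 and 0.532), the LDHA difference turning to -0.11 with quantile normalization. MXI1, a MYC antagonist induced by hypoxia, read 196, 531 and 379 on the a arrays, against 93.4, 86.8 and 73.3 on the b arrays (difference 2.02 ± 0.30 SE, adjusted p = 0.0127).

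Early response genes went both ways, with JUNB, DUSP1 and ZFP36 higher by 1.02, 0.795 and 0.79 and FOSL1 and KLF6 lower by 0.90 and 0.51, all past the test among 10 tested. The shares that rose and fell were 30% and 20%, against 14.5% and 11% of all named genes. Of 4 inflammatory genes NFKBIA, the NF-kB inhibitor, rose by 0.94 and TNFAIP3, another feedback inhibitor, fell by 0.43, which is 25% each against the same 14.5% and 11%. The other TNFAIP3 probe set differed by -0.34 and did not pass the test (adjusted p = 0.149).

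Small shifts of many bright genes made up a further pattern. All 33 tested cytosolic ribosomal protein genes had higher signals on a in all 3 pairs, as did 1522 of the 4503 named genes. Of the 33, 10 rose, or 30.3% against 14.5% of all named genes. The list's median was 0.33, with a range of 0.11 to 0.56. RPS19 read 9125, 9313 and 11130 on the a arrays, against 6545, 6929 and 6499 on the b arrays (difference 0.56 ± 0.12 SE, adjusted p = 0.0262). This list depended on the scaling: with quantile normalization its median was 0.10 and 1 member was called. Of 18 oxidative phosphorylation genes 9 rose and 0 fell, or 50% against 14.5% of all named genes. The median was 0.36, or 0.295 with quantile normalization. Without the MSP2 or the MSP3 pair 0 members of either list were called, and without the MSP1 pair 4 of each. COX5B, a subunit of cytochrome c oxidase, read 1795, 1745 and 1772 on the a arrays, against 1091, 1064 and 1163 on the b arrays (difference 0.68 ± 0.11 SE, adjusted p = 0.0136). NDUFA1, of complex I, and SDHC, of complex II, rose by 0.64 and 0.57, while NDUFS1, another subunit of complex I, differed by -0.20 (adjusted p = 0.227).

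Contractile genes held some of the wider rises. TAGLN, an actin-binding protein of smooth muscle, read 470.5, 1018 and 839.8 on the a arrays, against 177, 266 and 254 on the b arrays (difference 1.69 ± 0.14 SE, adjusted p = 0.0106). ACTA2, smooth muscle actin, read 685, 953 and 1112 on the a arrays, against 389, 264 and 296 on the b arrays (difference 1.52 ± 0.23 SE, adjusted p = 0.0132), and MYL9, a myosin light chain, rose by 1.43. CCN2 and CCN1, serum response genes of the same list, did not pass the test, with differences of 0.06 (-0.13 with quantile normalization) and -0.38. In all, 4 of the 12 tested members rose, or 33.3% against 14.5% of all named genes, and 0 fell, with 2 called without the MSP3 pair. With quantile normalization 4 rose and 2 fell. The list's median was 0.05, against 0.02 over all named genes, and 5 of the 12 members differed by less than 0. The list as a whole was thus not higher on the a arrays. In the matrix list 5 of 17 rose, or 29.4% against 14.5% of all named genes. This count became 2 with quantile normalization, 2 without the block and 0 without the MSP3 pair. THBS1, a matricellular glycoprotein, was the 1 member that fell, or 5.88% against 11% (difference -0.43 ± 0.11 SE, adjusted p = 0.0373). BGN, the proteoglycan biglycan, read 1053, 1025 and 653 on the a arrays, against 664, 426 and 168 on the b arrays. The sets overlapped through the low MSP3 pair, and each pair was higher on a (difference 1.30 ± 0.24 SE, adjusted p = 0.0189). COL1A2, a chain of type I collagen, and COL3A1 rose by 0.63 and 0.61.

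The widest single rises lay outside most of these lists. MGP, matrix Gla protein, an inhibitor of calcification, read 1050, 819 and 1557 on the a arrays, against 77.4, 30.9 and 51.8 on the b arrays, and the sets lay far apart (at least 21.9-fold with the dim MSP2 b signal raised to 32, difference 4.47 ± 0.23 SE, adjusted p = 0.0105). IQGAP2, a scaffold protein of the cytoskeleton, read 854, 499 and 953 on the a arrays, against 87.0, 24.7 and 37.4 on the b arrays, at least 15.7-fold with the dim MSP2 b signal raised to 32 (difference 4.10 ± 0.26 SE, adjusted p = 0.0105). ABCA8, a lipid transporter, PPL, the periplakin gene of the cornified envelope, SCNN1A, a sodium channel subunit, and HPGD, which degrades prostaglandins, rose by 1.96, 1.91, 1.875 and 1.78.

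Among the falls, PTPRZ1, a receptor phosphatase, read 79.8, 23.5 and 12.9 on the a arrays, against 308, 175 and 127 on the b arrays and was at least 4.38-fold lower with its 2 dim a signals raised to 32 (difference -2.71 ± 0.26 SE, adjusted p = 0.0106). PTPRZ1 passed the dim limit through its b signals, so its call supports nothing further. NAV3, a protein of microtubule tips, read 154, 85.5 and 34.8 on the a arrays, against 379.7, 367 and 252 on the b arrays (difference -2.09 ± 0.28 SE, adjusted p = 0.0114). ITGA6, a laminin receptor subunit, read 672, 288 and 406 on the a arrays, against 1570, 1029 and 998 on the b arrays (difference -1.45 ± 0.15 SE, adjusted p = 0.0106). SLC19A1, the folate carrier, FZD7, a Wnt receptor, and TLR2, a receptor of innate immunity, fell by 1.79, 1.30 and 1.30. SLC19A1 was dim on MSP3 a, at 11.2 signal units, and was at least 2.43-fold lower with that signal raised to 32. In PTPRZ1 and NAV3 the difference was narrower in MSP1, at -1.95 and -1.30, than in MSP3, at -3.30 and -2.86.

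The letter differences of the CD24hi pair, measured on arrays that enter none of the mesenchymal differences, ran mostly the other way, although part of the gene names rest on calls against CD24hi cells. Of 3113 probe sets that rose on the mesenchymal a arrays 746 were higher on CD24hi a than on CD24hi b (24.0%), and of 2797 that fell 2113 were higher (75.5%), against 48.4% of all probe sets tested. Across the 22498 probe sets the CD24hi difference correlated with the mean mesenchymal one at r = -0.36, given as a description of 1 pair and with no test. CDKN1A, higher on a in each mesenchymal pair, had 691 signal units on CD24hi a against 2802 on CD24hi b. SLC7A5, lower on a in the mesenchymal pairs, had 8890 on CD24hi a against 5130 on CD24hi b, and COX5B had 997 against 1966. The list medians of the CD24hi pair were 0.45 for sterol synthesis, -1.37 for p53 targets and -0.46 for oxidative phosphorylation. Not every list turned. The mitosis median kept its sign, at -0.33 with 16 of 24 members lower on CD24hi a. The integrated stress response had -0.55 with 13 of 15 members lower, beside its mesenchymal median of -0.14. Heat shock, matrix and the epithelial and mesenchymal marker lists also had CD24hi medians of the same sign as their mesenchymal ones. The CD24hi arrays differed more than any mesenchymal pair, with 26.8% of probe sets over 2-fold apart, and their Bacillus controls read 720.3 on a against 70.3 on b.

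**Figure D4:**
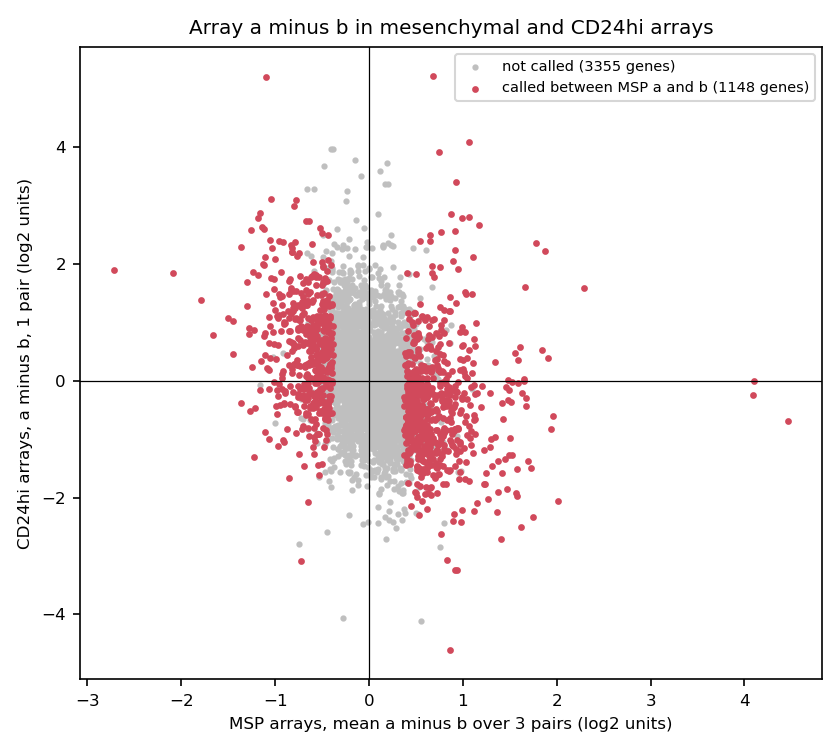
Difference array a minus array b of 4503 named genes, in log2 units: mean of the 3 mesenchymal pairs on the horizontal axis, the CD24hi pair on the vertical axis. Red points are the 1148 genes called between the mesenchymal sets; of the 654 that rose there 485 lie below 0 for CD24hi, and of the 494 that fell 354 lie above 0.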

How the data were processed

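RNA of 8 samples was hybridised to single-colour arrays, and the 6 mesenchymal ones were used, with the CD24hi pair set beside them. The signal intensity of each probe set was deposited by the authors on a linear scale. The submitters' processing notes name Affymetrix Expression Console and limma, without saying which step each did. The authors' deposited pairwise table, with log2 fold changes and p-values, served only for gene symbols: 14028 of its 16382 probe sets had 1 symbol, 2331 had none and 23 held a date in its place. Symbols were updated through RefSeq names (GRCh38.p14), and 1163 distinct ones were kept as listed. That table lists 2256 probe sets that the authors called against CD24hi cells and, after them, a part in array order, so named genes are not a random sample.

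The fit to log2 intensity (limma 3.58.1, R 4.3.3) held the subpopulation as a block, 2 residual and 3.88 prior degrees of freedom, after 62 control probe sets and those with a mean under 32 were left out. The p-values were adjusted by Benjamini and Hochberg's method over 22498 probe sets. The labels do not state whether the arrays stem from separate cultures. The p-values set the mean a minus b difference against a moderated variance. This variance combines the spread of the differences between subpopulations with a prior pooled over all probe sets tested, and the prior has more degrees of freedom. The number of arrays limits the precision. The numbers pair the samples by subpopulation, and deviations within a number correlated with r = 0.38, 0.53 and 0.31. In simulated data of 22498 probe sets for this comparison, 36% of 1.5-fold and 98% of 2-fold changes were recovered, and 7.73% of calls were false. The simulation changed 50 probe sets at each fold and drew independent noise, whereas 26.3% of probe sets were called in the data. Its rates therefore do not carry over to the calls reported here.

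The members and the 23 gene lists were chosen with earlier results of these data known. Genes were named as the 12 widest called rises and 12 widest called falls, and for each list the 4 widest members of 1 sign in all pairs and the 2 brightest; other list members named were chosen after their values were seen. Motifs were searched in the first listed promoter of each gene. Alternatives covered the dim limit, a floor, the scaling, the prior, the block, each pair left out and the CD24hi pair added; 2 were added after seeing the data. Some list members that entered the counts and medians are not reported here by name.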

Additional observations from a re-analysis of the deposited data

Results flagged for a closer look

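Among the gene lists, 11 had a median difference in the CD24hi pair of the opposite sign to that in all 3 mesenchymal pairs; the difference was not tested, since the CD24hi pair is a single pair. The CD24hi medians were 0.05 (0.046) for DNA replication, 0.448 for sterol synthesis and uptake, 0.71 for fatty acid synthesis and 0.815 for the unfolded protein response, all of which were below 0 in the mesenchymal pairs. Immediate early genes had 0.06, against -0.02 (-0.021 and -0.016) in MSP1 and MSP2 and -0.28 in MSP3. The medians were -0.093 for the interferon response, -1.371 for p53 targets, -0.271 for quiescence, -0.896 for the 2 metallothioneins, -0.456 for oxidative phosphorylation and -0.212 for cytosolic ribosomal proteins, all of which were above 0 in the mesenchymal pairs. The DNA replication, immediate early and interferon medians of the CD24hi pair lay close to 0. The widest gap was that of the p53 targets, with 0.22, 0.33 and 0.68 in MSP1, MSP2 and MSP3.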

How the results depend on the processing

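Calls depended on which pairs were in the fit and on the dim limit. The fit called 0 probe sets and 0 named genes with no dim filter (8049 and 1315 at an unadjusted p under 0.05) and with the CD24hi pair added (1896 and 402), but 5949 probe sets with no filter and an intensity trend, an alternative added after seeing the data. Leaving out 1 pair gave 1 to 6229 probe sets and 0 to 1204 genes, the lowest without MSP2. Without the replicate block 4275 probe sets and 803 genes were called, and within the ordered part of the named table, also added later, 1467 of 5195. Without the block the fall calls were 4 in the sterol list (7 with it) and 0 in the integrated stress list (4 with it). Genes with a mean of at least 1.5-fold and 1 sign in all pairs, 397 higher and 292 lower, became 871 and 822 with no filter, 254 higher at the stricter dim limit, and 135 and 84 with the CD24hi pair. With that pair the medians were -0.351 for DNA replication and -0.205 for sterol synthesis. They were -0.097 for the unfolded protein response and -0.33 for the integrated stress response. At the stricter limit the interferon median was 0.717, over 9 genes rather than 19. Signs turned for lists as follows. Inflammatory genes, 4 in the main fit, had 0.067 with no filter (9 genes) and 0.937 at the stricter limit (1 gene). They had 0.669 with CD24hi and -0.352 to 0.364 with a pair left out. Sterol efflux, 4 genes in the main fit, had -0.356 at the stricter limit (1 gene) and -0.278 to 0.442 with a pair left out. Without the MSP2 or the MSP3 pair it held 3 genes. Medians over changed members are not of the same genes as in the main fit. Hypoxia had -0.088 with quantile normalization, -0.02 with CD24hi and -0.023 to 0.043 with a pair left out, and contractile genes had -0.03 with quantile normalization and -0.013 to 0.092 with a pair left out. Oxidative stress had -0.133 with CD24hi and -0.034 to 0.2 with a pair left out, and quiescence -0.003 with CD24hi. Signs turned for genes with quantile normalization in FDPS (-0.05), B2M (-0.042), LDHA (-0.113), FBLN5 (-0.191), CCN2 (-0.133), SFN (-0.057) and VIM (-0.035), and VIM had -0.771 as the mean of its probe sets. With the CD24hi pair they turned in FDPS (-0.072), ABCA1 (0.637), SEL1L (0.032), MTHFD2 (-0.007), HSPD1 (0.031), MT1X (-0.062), DDB2 (-0.057), TNFAIP3 (0.3) and KLF9 (-0.051). With a pair left out the range crossed 0 in FDPS (-0.006 to 0.101), SFN (-0.024 to 0.214), TYMS (-0.075 to 0.015), CKS2 (-0.214 to 0.078) and FBLN5 (-0.03 to 0.101). The cause was not tested. Signals under 32 limit what can be said of dim genes.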

Other observations

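A probe set that the authors' deposited table lists as TOMM40, a subunit of the mitochondrial import channel, had signals near those of APOE. It read 60.8, 314 and 321 on the MSP1, MSP2 and MSP3 a arrays, against 3.20, 14.6 and 16.9 on the b arrays, while the APOE probe set read 57.1, 217 and 245.5 on the a arrays and 3.65, 11.3 and 14.8 on the b arrays. A brighter TOMM40 probe set went the other way, with 273, 188 and 200.3 on the a arrays and 354, 350.7 and 321 on the b arrays. Which transcript the probe set listed as TOMM40 detects was not tested.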
